A study of Mus musculus with 8 samples.

Results

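Huntingtin, the protein whose expanded glutamine tract causes Huntington's disease, and 9 of its interacting or modifying proteins were followed at the transcript level in mouse striatum. The set was chosen by gene, as all probe sets that the array's annotation gives to Htt, Hap1, Hip1, Hip1r, Pacsin1, Sh3gl3, Zdhhc17, Zdhhc13, Rasd2 and Setd2. It holds 25 of the 45037 probe sets tested and 10 of 18193 genes with a named probe set. No probe set was dropped, and none that the annotation shares between several genes contained a member. Striatal RNA came from 4 R6/2 mice, numbered 64, 65, 70 and 78, and from 4 wild-type mice, numbered 42, 48, 54 and 63, with 1 array per mouse. R6/2 mice are transgenic for the start of the human huntingtin gene with an expanded CAG repeat, driven by the human promoter, while both mouse Htt copies are kept. All 8 animals were labelled as females of 85 days (12 weeks) on a C57Bl/6 / CBA background, so the groups share sex, age and background. The comparison asks which transcripts differ between the genotypes at this age.

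Huntingtin is a large scaffold that links vesicles to motor proteins and takes part in endocytosis and transcription. Its partners were found largely by their binding to its N-terminal part. HAP1 joins huntingtin to dynactin and kinesin. HIP1 and HIP1R couple clathrin to actin, and PACSIN1 and endophilin A3 (Sh3gl3) bend membrane during endocytosis. ZDHHC17 (HIP14) attaches palmitate to huntingtin and ZDHHC13 (HIP14L) is its paralog. RASD2, also called Rhes, is a small GTPase enriched in the striatum that binds mutant huntingtin, and SETD2 (HYPB) trimethylates histone H3 (H3K36).

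Rasd2 was the sole member whose transcript passed the test, and it was about 2.11-fold lower in R6/2 striatum by one probe set and 1.94-fold lower by the other. Mouse Htt itself differed by -0.099 to 0.093 on the log2 scale over its 4 probe sets, with overlapping groups on each. Pacsin1 and Sh3gl3 had lower means and Hap1 a higher mean in R6/2 mice, with differences of 0.27 to 0.35 on the log2 scale that narrowly missed the threshold. The remaining members, Hip1, Hip1r, Zdhhc17, Zdhhc13 and Setd2, did not pass on any probe set.

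The upstream sequences of Rasd2 and Htt are shown because these genes stand for the called and the uncalled end of the set. Each is the 250 bases before the gene's start in RefSeq (GRCm38.p6), 5′ to 3′ on the gene's strand. Htt lies on the plus strand of chromosome 5, with the window at chr5:34761490-34761739, and Rasd2 on the plus strand of chromosome 8, at chr8:75213694-75213943. Capitals mark the GC box (GGGCGG or its reverse CCGCCC, the core of SP1 sites) and the cyclic AMP response element (TGACGTCA, its own reverse), searched on both strands.
Htt: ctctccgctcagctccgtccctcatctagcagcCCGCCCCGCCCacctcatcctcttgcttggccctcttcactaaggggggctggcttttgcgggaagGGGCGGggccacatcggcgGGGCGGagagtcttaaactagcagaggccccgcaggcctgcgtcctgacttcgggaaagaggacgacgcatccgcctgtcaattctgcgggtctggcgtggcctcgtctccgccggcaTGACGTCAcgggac
Rasd2: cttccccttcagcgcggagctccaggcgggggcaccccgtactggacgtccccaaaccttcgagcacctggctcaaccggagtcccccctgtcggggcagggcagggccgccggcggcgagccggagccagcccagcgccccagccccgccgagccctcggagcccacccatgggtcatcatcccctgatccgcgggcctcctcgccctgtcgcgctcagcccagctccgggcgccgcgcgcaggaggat
The Htt window holds 4 GC boxes, of which the first pair shares a base, and 1 cyclic AMP response element that ends 6 bases before the start. In the Rasd2 window neither motif was found, nor were TATAAA or CCAAT. GC boxes occur in 32.7% of the 32851 RefSeq promoter windows of this length, and the 8-base cyclic AMP response element in 1.55%. Windows were available for 9 of the 10 genes, 12 windows in all, and 7 of the 12 contain a GC box. The G and C content was 75.2% for Rasd2 and 66.4% for Htt, against a median of 52.4% over all windows.

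Each probe set has a log2 expression value, a scale on which a difference of 1 is a doubling of the linear signal. Array medians lay between 5.08 and 5.13, and correlations between arrays ranged from 0.983 to 0.994. All 9 medium spiny neuron markers measured, Ppp1r1b, Pde10a, Drd1, Drd2, Penk, Rgs9, Bcl11b, Foxp1 and Adcy5, had means above 9 on every brightest probe set, so markers of the labelled tissue were present, and all 9 fell in R6/2 mice. Their list score, the mean difference from the wild-type mean, ran from -1.002 to -0.943 on R6/2 arrays and from -0.236 to 0.112 on wild-type arrays. The score of cortical projection neuron markers varied within both groups, from -1.18 to -0.14 on R6/2 arrays and from -0.61 to 0.48 on wild-type arrays. Taken from the wild-type mean, it averaged -0.75 on R6/2 arrays, so it is partly tied to genotype. Adjustment for it costs precision, with the SE of Rasd2 set 1427343_at at 0.14 without it and 0.18 with it. A call lost after that adjustment cannot tell a cortical share from this loss of precision. In these tissue samples fewer cells of a type and less RNA per cell cannot be told apart.

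Rasd2 was the brightest member on this array, its sets at the 98.0 and 99.5 percentile of the means of all probe sets. Probe set 1427343_at read 10.35, 10.20, 10.04 and 10.47 in R6/2 mice 64, 65, 70 and 78, against 11.63, 11.51, 11.09 and 11.15 in wild-type mice 42, 48, 54 and 63. Every R6/2 mouse lay below every wild-type mouse, and the closest pair, R6/2 mouse 78 and wild-type mouse 54, was still well apart. The log2 difference, R6/2 minus wild-type, was -1.08 ± 0.14 (SE, 95% interval -1.39 to -0.77, limma adjusted p = 0.00184). Probe set 1427344_s_at, the brighter one, read 11.70, 11.36, 11.49 and 11.57 in R6/2 mice and 12.69, 12.68, 12.45 and 12.11 in wild-type mice. Its groups did not overlap either, with a difference of -0.95 ± 0.13 (SE, 95% interval -1.25 to -0.66, limma adjusted p = 0.00255). By the maker's naming, the ending _s_at marks probes that can match several transcripts. The changes of the 2 sets differed by 0.12, which the exact permutation test did not separate (p = 0.314, adjusted p = 0.796 over 15 pairs).

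The call of Rasd2 was kept by both sets without any one of the 8 arrays, with differences from -1.16 to -0.89 and adjusted p of at most 0.0111. With the cortical score as a covariate, the differences were -0.91 ± 0.18 (adjusted p = 0.0371) and -0.81 ± 0.18 (adjusted p = 0.0472). Its fall accompanied that of the medium spiny neuron markers listed above. Scores of 3 other marker lists were also lower on every R6/2 array than on every wild-type array. For striatal interneurons they ran from -0.69 to -0.31 in R6/2 and from -0.25 to 0.25 in wild-type mice (3 of 8 markers fell). For astrocytes they ran from -0.34 to -0.23 in R6/2 and from -0.11 to 0.18 in wild-type mice (2 of 8 fell). For endothelial and mural cells they ran from -0.45 to -0.20 in R6/2 and from -0.10 to 0.089 in wild-type mice (3 of 7 fell). The part of cell numbers in the Rasd2 result was not tested. The genes whose patterns over the 8 arrays were most like that of 1427343_at were Camkk2, Sema7a, Kalrn and Pmepa1, with root mean square differences of 0.096 to 0.11 after centring, against an SD of 0.61 for Rasd2 itself. Camkk2 encodes a calcium and calmodulin-dependent kinase kinase and Sema7a a membrane-bound semaphorin. Their log2 differences, -1.14 to -0.997, follow from that choice and are no separate result.

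**Figure D1:**
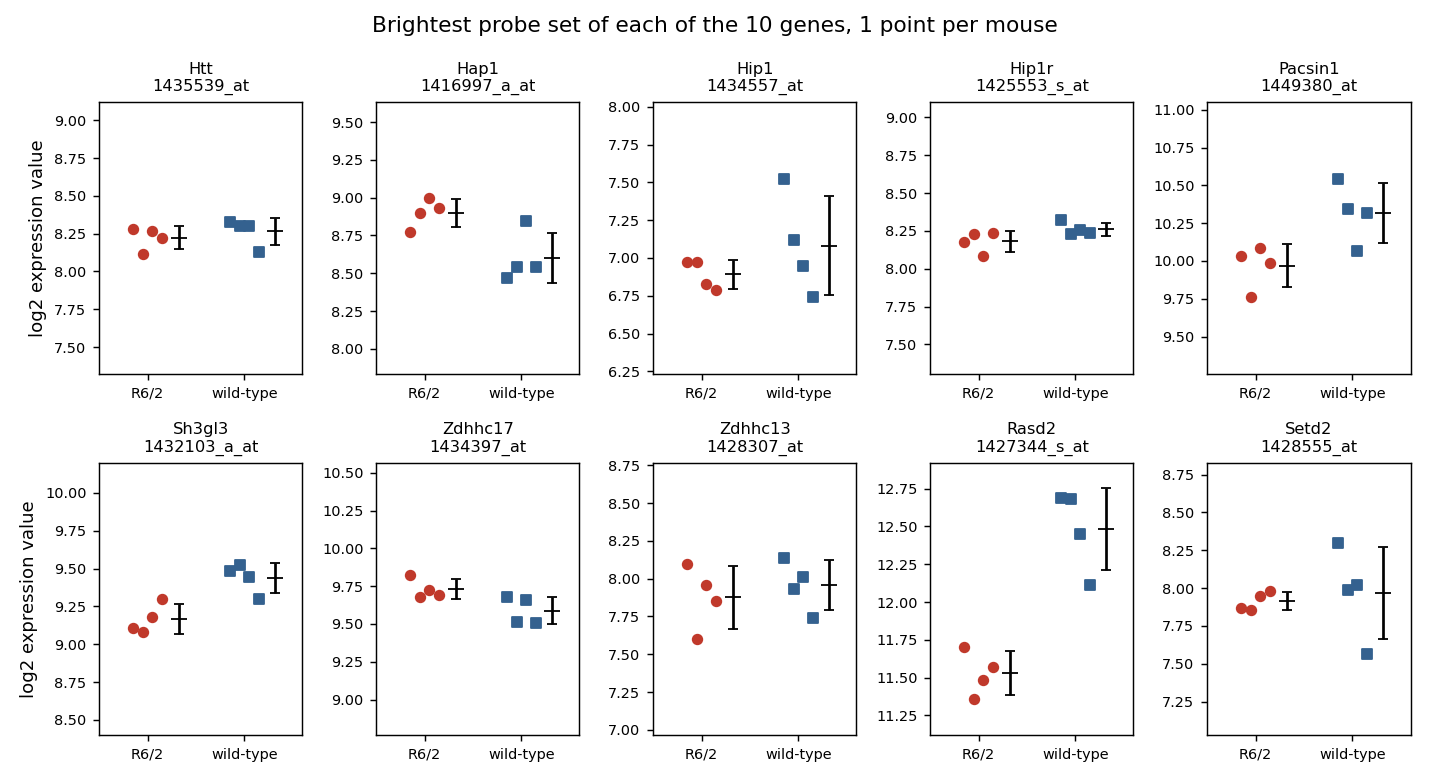
Log2 expression values of the brightest probe set of each of the 10 genes, with R6/2 mice (circles) left of wild-type mice (squares), 1 point per mouse; bars show the mean and SD of 4 mice, and every panel spans the same log2 range. Rasd2 is the panel with a clear gap between the groups, while Htt overlaps with means of 8.22 in R6/2 and 8.27 in wild-type mice.

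Htt was measured by 4 probe sets, none of which passed. The brightest, 1435539_at, read 8.28, 8.12, 8.27 and 8.22 in R6/2 mice, against 8.33, 8.30, 8.30 and 8.13 in wild-type mice. The groups overlapped, with R6/2 mouse 65 and wild-type mouse 63 lowest in their groups. The 95% interval of the difference, -0.21 to 0.12, covers a level from 13.6% lower to 9.01% higher, so a change as large as that of Rasd2 lies outside it. Set 1456667_at differed by -0.099 ± 0.096 (SE, adjusted p = 0.577), set 1425969_a_at by 0.093 ± 0.10 (adjusted p = 0.627) and the dim set 1446337_at by 0.016 ± 0.16 (adjusted p = 0.968). The signs of the 4 sets were mixed, and no pair of Htt sets was separated by the exact permutation test, whose smallest p here was 0.0571 (adjusted p = 0.796). Whether any Htt probe set also reads the human transgene was not tested, since probe sequences were not used here. The genes whose patterns lay closest to 1435539_at were BB557941, Akap6, Usp12 and Wdr18, with root mean square differences of 0.015 to 0.025 against an SD of 0.080 for Htt.

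Hap1, the trafficking adaptor, had 1 probe set, 1416997_a_at. It read 8.77, 8.90, 8.997 and 8.93 in R6/2 mice, against 8.47, 8.54, 8.84 and 8.54 in wild-type mice. Wild-type mouse 54 stood above R6/2 mouse 64, and the other wild-type mice lay below all R6/2 mice. The difference of 0.30 ± 0.095 (SE, 95% interval 0.090 to 0.51) did not pass over all probe sets (adjusted p = 0.0738). Without wild-type mouse 54 it was 0.38 and passed (adjusted p = 0.0240). After adjustment for the cortical score it was 0.12 (adjusted p = 0.625). Hap1 is abundant in hypothalamus and septum. Markers of these neighbouring regions scored from -0.078 to 0.081 on R6/2 arrays and from -0.18 to 0.11 on wild-type arrays, with none of 7 called in either direction. The part of neighbouring tissue in the Hap1 difference was not tested.

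Among the endocytic partners, Pacsin1 and Sh3gl3 had the largest differences by the brightest probe set of each gene. Pacsin1, a neuronal membrane-bending protein that binds dynamin, read 10.04, 9.76, 10.08 and 9.99 in R6/2 mice and 10.54, 10.34, 10.06 and 10.32 in wild-type mice with set 1449380_at. Only wild-type mouse 54 fell within the R6/2 range. With set 1449381_a_at the values were 9.97, 9.80, 9.86 and 9.87 in R6/2 mice and 10.38, 10.13, 10.04 and 10.13 in wild-type mice, and the groups did not overlap. The differences of -0.35 ± 0.11 (adjusted p = 0.0746) and -0.30 ± 0.088 (adjusted p = 0.0572) did not pass. With the cortical score as a covariate they were -0.11 (adjusted p = 0.685) and -0.14 (adjusted p = 0.543), and without wild-type mouse 54, whose cortical score was the lowest of its group, 1449380_at passed at -0.43 (adjusted p = 0.0353).

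Sh3gl3 encodes an endophilin that was found to bind the proline-rich part of huntingtin. Its set 1432103_a_at read 9.11, 9.08, 9.18 and 9.30 in R6/2 mice, against 9.49, 9.52, 9.45 and 9.30 in wild-type mice. R6/2 mouse 78 and wild-type mouse 63 met at the same rounded value, and the other mice were separated by group. The difference was -0.27 ± 0.080 (SE, 95% interval -0.45 to -0.093, adjusted p = 0.0594). It was -0.29 (adjusted p = 0.220) with the cortical score as a covariate and passed without wild-type mouse 63 (-0.32, adjusted p = 0.0380).

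**Figure D2:**
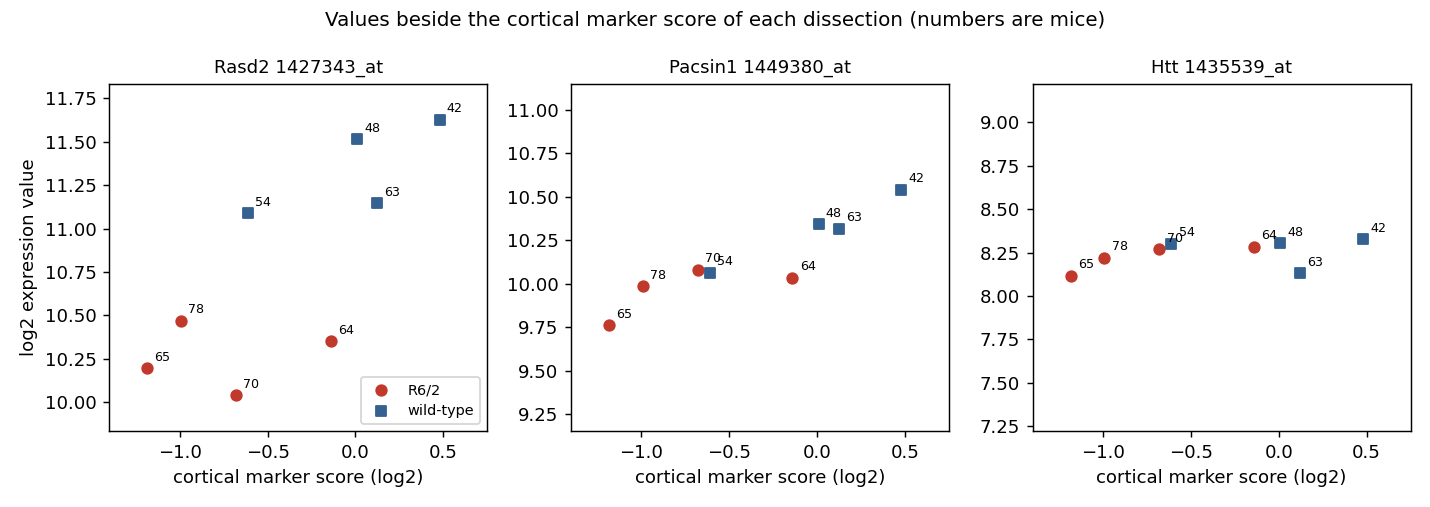
Log2 expression values of Rasd2 (1427343_at), Pacsin1 (1449380_at) and Htt (1435539_at) on the vertical axes against the cortical projection neuron marker score of the same array, with R6/2 mice as circles, wild-type mice as squares and mouse numbers beside the points; the vertical axes span equal log2 ranges. Rasd2 separates the groups at similar scores, with 10.04 in R6/2 mouse 70 and 11.09 in wild-type mouse 54, whereas Pacsin1 is 10.08 and 10.06 in the same mice. At another pair of near scores, R6/2 mouse 64 and wild-type mouse 48, Pacsin1 is 10.04 and 10.34.

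Hip1 and Hip1r, the clathrin and actin adaptors, did not pass. The brightest Hip1 set, 1434557_at, read 6.97, 6.97, 6.83 and 6.79 in R6/2 mice and 7.52, 7.12, 6.94 and 6.75 in wild-type mice. The wild-type mice were the more variable, and their range enclosed that of the R6/2 mice (-0.19 ± 0.14, 95% interval -0.51 to 0.13). Set 1424755_at differed by -0.33 ± 0.13 (adjusted p = 0.145) and passed without wild-type mouse 42 (-0.45, adjusted p = 0.0227). The other 3 Hip1 sets differed by -0.14 to 0.063. Hip1r read 8.18, 8.23, 8.09 and 8.23 in R6/2 mice and 8.32, 8.23, 8.25 and 8.23 in wild-type mice with its brightest set, 1425553_s_at, whose 95% interval was -0.23 to 0.072. Its other sets differed by -0.19 (1425552_at, adjusted p = 0.242) and 0.011 (1425551_at, adjusted p = 0.970).

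The palmitoyltransferase Zdhhc17 had 5 probe sets, and none passed. Its brightest, 1434397_at, read 9.83, 9.68, 9.72 and 9.69 in R6/2 mice and 9.68, 9.51, 9.66 and 9.51 in wild-type mice. The groups met near 9.68, and the 95% interval of the difference was -0.024 to 0.31. Set 1455986_at, at a mean of 4.15, had all R6/2 mice above all wild-type mice (0.24 ± 0.12, adjusted p = 0.229), from 4.16 to 4.51 in R6/2 mice and from 3.73 to 4.14 in wild-type mice. Sets 1458363_at and 1447656_at lay within the range of 9 probe sets for Y-linked genes, at most 3.67, which these females lack, and differences at that level are not read as levels of Zdhhc17. Zdhhc13 read 8.10, 7.60, 7.96 and 7.86 in R6/2 mice and 8.13, 7.93, 8.01 and 7.74 in wild-type mice, with overlapping groups and a 95% interval of -0.34 to 0.18.

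Setd2, the histone methyltransferase, read 7.87, 7.86, 7.95 and 7.98 in R6/2 mice and 8.29, 7.99, 8.02 and 7.56 in wild-type mice. The R6/2 mice lay inside the wild-type range, which was set by mice 42 and 63. The difference was -0.055 ± 0.13 (SE, 95% interval -0.35 to 0.24, adjusted p = 0.844).

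Counted over the set, 2 of 25 member probe sets were called (8%), both lower, against 10.1% of all 45037 probe sets (4.59% lower), and 0 were called higher, against 5.54%. At an unadjusted limma p under 0.05 there were 6 lower and 1 higher among the 25, which is 24% and 4% of the members, against 11.6% lower and 13.4% higher among all probe sets. R6/2 and wild-type values were fully separated in 4 of the 25, with 3 below and 1 above, against 16.1% of all probe sets (7.07% below and 9.05% above). The median log2 difference was -0.057 for the 25 and -0.017 for all probe sets. By the brightest set of each gene, 1 of 10 genes was called, against 12.4% of 18193 genes. The shares called in either direction and fully separated in either direction are near those of the whole table. The shares by direction rest on few sets, with several sets of 1 gene counted separately. Without the 2 Rasd2 sets, 0 of 23 were called, and 1 was fully separated below and 1 above. At an unadjusted limma p under 0.05 there were then 4 lower (17.4%) and 1 higher (4.35%). Of the 25 sets, 19 had means above the overall median of 5.11, and the other 6 were dim sets of Htt, Hip1 and Zdhhc17. The largest difference among the 23 sets that were not called was -0.35.

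**Figure D3:**
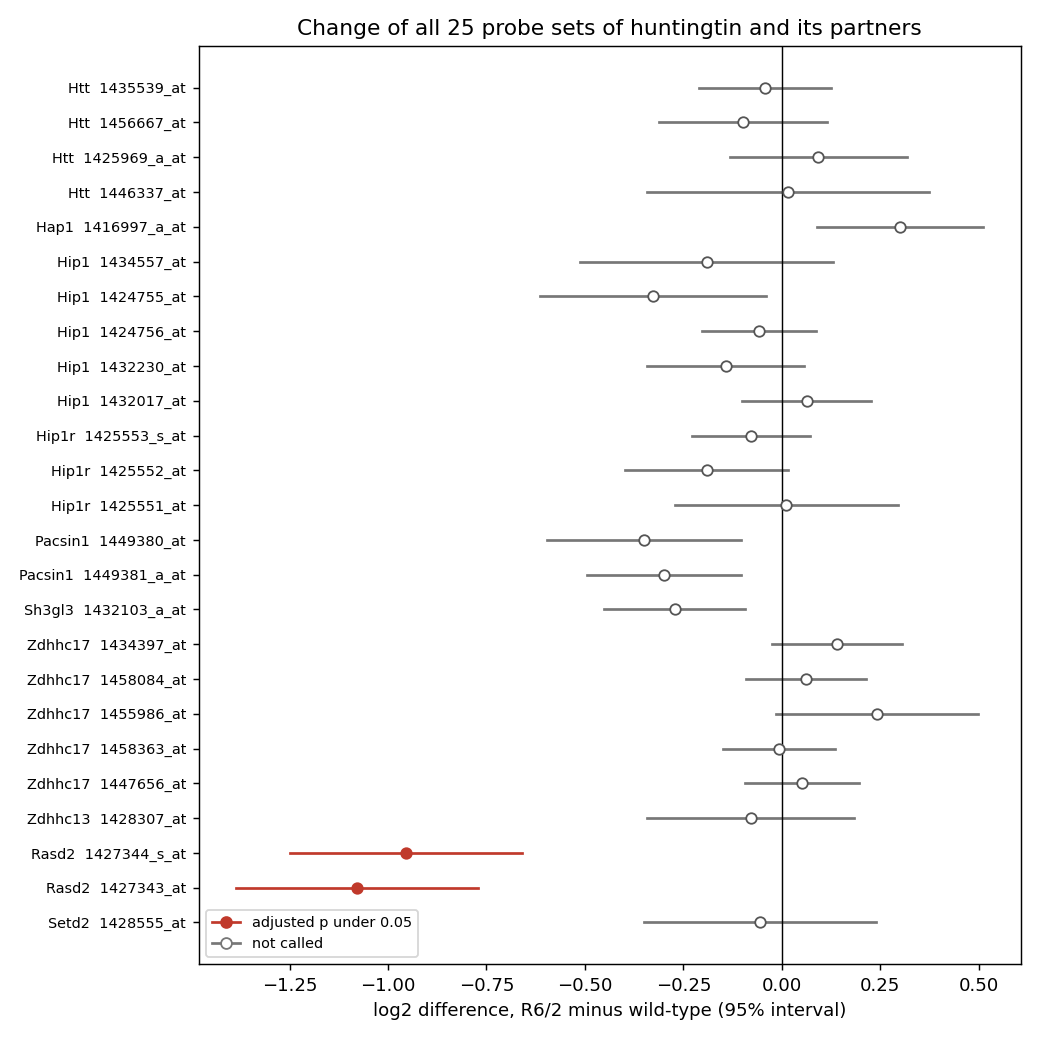
Log2 difference, R6/2 minus wild-type, of all 25 probe sets with 95% intervals from limma; filled points passed an adjusted p of 0.05. Only the 2 Rasd2 sets, at -0.95 and -1.08, are filled, and the other points lie between -0.35 and 0.30.

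Genes around the members were described by lists of related genes, each gene by its brightest probe set, with the counts over all 18193 genes at 7.29% called higher and 5.13% called lower and a median of -0.0034. Of 24 other huntingtin partners, 5 rose, 0 fell and 19 did not pass, with a median of 0.14. The risers were Ahi1 (0.36 ± 0.070), whose protein binds HAP1, the centrosomal satellite gene Pcm1 (0.41 ± 0.091), the autophagy receptor gene Sqstm1 (0.46 ± 0.11), the corepressor gene Ctbp1 (0.28 ± 0.073) and the histone acetyltransferase gene Crebbp (0.29 ± 0.076, named after its values were seen). Ahi1 read 10.69, 10.60, 10.80 and 10.64 in R6/2 mice and 10.35, 10.34, 10.33 and 10.28 in wild-type mice, without overlap, and its adjusted p was 0.0117, at most 0.0379 without any one array. Of 4 other sets of Pcm1, 1 was called higher (0.59, adjusted p = 0.0202) and the rest ran from -0.032 to 0.28. The other set of Sqstm1, dim at 4.24, differed by -0.23 (adjusted p = 0.292). Other sets of Crebbp were called higher too (0.40, adjusted p = 0.00576, and 0.36, adjusted p = 0.0261), while a dim set differed by 0.031. So was the other set of Ahi1 (1.18). Among partners counted as not passing, other sets of Rasa1 (0.45 and 0.52) and F8a (0.57) were called higher. No other set of a partner was called lower. The count of risers was 1 without R6/2 mouse 78 or wild-type mouse 48, 2 without R6/2 mouse 64 or 70, 3 without wild-type mouse 54 or 63, and 0 after adjustment for the cortical score. Such counts, here and for the lists below, stand beside a drop in calls over all 45037 probe sets. From 4566 calls the number went to 2780 without R6/2 mouse 64 and 2650 without R6/2 mouse 70. It went to 2656 without wild-type mouse 48 and to 1386 after adjustment for the cortical score. With that adjustment the differences were 0.39 for Ahi1 (adjusted p = 0.0683), 0.40 for Pcm1 (adjusted p = 0.139), 0.40 for Sqstm1 (adjusted p = 0.188), 0.38 for Ctbp1 (adjusted p = 0.0687) and 0.24 for Crebbp (adjusted p = 0.280). A count of 1 fall came up without R6/2 mouse 78, without wild-type mouse 42 and after a further quantile normalization. With the sets of each gene averaged, 2 partners were called lower.

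The 22 further DHHC palmitoyltransferases, relatives of Zdhhc17 and Zdhhc13, were split, with 3 lower, 3 higher, 16 not passing and a median of 0.012. Zdhhc22 (-0.84 ± 0.17, adjusted p = 0.0136) and Zdhhc18 (-0.59 ± 0.15, adjusted p = 0.0346) fell, and Zdhhc3 (0.34 ± 0.080, adjusted p = 0.0261) and Zdhhc20 (0.47 ± 0.12, adjusted p = 0.0323) rose. The other set of Zdhhc18 differed by -0.085 (adjusted p = 0.656), and the 3 other sets of Zdhhc3 ran from -0.14 to 0.067. Those of Zdhhc20 ran from 0.096 to 0.42 and did not pass. The call of Zdhhc22 was kept without any one array, and those of the other 3 named genes were each lost without any of 5 arrays. After adjustment for the cortical score no gene of the list was called in either direction, and the difference was -0.48 for Zdhhc22 (adjusted p = 0.183), -0.78 for Zdhhc18 (adjusted p = 0.0695), 0.33 for Zdhhc3 (adjusted p = 0.161) and 0.26 for Zdhhc20 (adjusted p = 0.365). Falls numbered 1 without R6/2 mouse 64, 65 or 70 or wild-type mouse 48 or 54, and rises numbered 0 without wild-type mouse 48 or 54 and 1 without any R6/2 mouse or without wild-type mouse 63.

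Of 31 clathrin endocytosis genes, the machinery that Hip1, Hip1r, Pacsin1 and Sh3gl3 work with, 1 fell, 0 rose and 30 did not pass (median 0.031). The gene that fell was Fcho1, whose protein starts clathrin-coated pits. It read 7.97, 8.02, 8.06 and 7.85 in R6/2 mice and 8.58, 8.72, 8.70 and 8.37 in wild-type mice, a difference of -0.62 ± 0.094 (adjusted p = 0.00370). Its other sets fell by 0.73 and 0.99 on the log2 scale (adjusted p = 0.00524 and 0.00368). Among sets other than the brightest, a set of Hspa8 (0.46, adjusted p = 0.00394) and a set of Clta (0.33, adjusted p = 0.0159) were called higher. A set of Cltc (-0.42, adjusted p = 0.00981) and a set of Cltb (-0.34, adjusted p = 0.0234) were called lower. With the sets of each gene averaged, 2 genes of the list were called higher.

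Of 22 genes that work with HAP1 in transport, 3 fell, 1 rose and 18 did not pass (median 0.099). Kalrn, whose protein binds HAP1, fell most. It read 9.74, 9.47, 9.50 and 9.61 in R6/2 mice and 10.89, 10.68, 10.44 and 10.40 in wild-type mice, a difference of -1.02 ± 0.12 (adjusted p = 0.00105). 3 of its 7 other sets also fell, and the rest, from -0.27 to 0.39, did not pass. The sorting receptor gene Sort1 (-0.50 ± 0.083) and the kinesin heavy chain gene Kif5c (-0.35 ± 0.076) fell too, while 2 other sets of Sort1 differed by 0.034 and -0.074 (adjusted p = 0.811 and 0.681). Dctn5, a dynactin subunit gene, rose by 0.34 ± 0.092 (adjusted p = 0.0421), a call lost without any array but that of wild-type mouse 63, with an adjusted p of up to 0.112 without R6/2 mouse 64, and its other set differed by 0.033. Besides those of Kalrn, other sets were called higher for Trak1 (0.54 and 0.53), Dctn4 (0.45 and 0.44) and Kif5b (1.70). They were called lower for Ntrk2 (-0.41 and -1.02) and Kif5c (-0.53), and further sets of each of these genes did not pass. Rises numbered 0 without any R6/2 mouse or without wild-type mouse 48 or 54. They numbered 2 after a further quantile normalization and 3 with the sets of each gene averaged. With the cortical covariate there was 1 fall, Kalrn (-0.81, adjusted p = 0.0213), and no rise. Sort1 then differed by -0.35 (adjusted p = 0.0911), Kif5c by -0.28 (adjusted p = 0.186) and Dctn5 by 0.38 (adjusted p = 0.162).

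Of 16 genes of H3K36 methylation, the histone mark that SETD2 writes, 1 fell, 3 rose and 12 did not pass (median 0.022). The demethylase gene Kdm4b fell by 0.60 ± 0.092 on the log2 scale (adjusted p = 0.00393). Iws1, whose protein brings SETD2 to elongating polymerase, rose by 0.34 ± 0.071 (adjusted p = 0.0146), and its other set differed by 0.11 (adjusted p = 0.617). The methyltransferase genes Smyd2 (0.52 ± 0.13, adjusted p = 0.0364) and Setmar (0.40 ± 0.11, adjusted p = 0.0488) rose too, but their calls were lost without any of 6 and any of 8 arrays. Psip1 did not pass by its brightest set, but other sets of it were called higher (0.31, adjusted p = 0.0379, and 0.35, adjusted p = 0.0444). Rises numbered 1 to 2 without any one array, the 1 without R6/2 mouse 64, 70 or 78 or wild-type mouse 48 or 54. After adjustment for the cortical score 0 were called lower and 1 higher, Setmar (0.61, adjusted p = 0.0440), while the differences were -0.54 for Kdm4b (adjusted p = 0.0610), 0.34 for Iws1 (adjusted p = 0.112) and 0.67 for Smyd2 (adjusted p = 0.0812).

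Human studies of age at onset of Huntington's disease point mostly to DNA repair genes, and 8 mouse genes from these studies were measured. Of them 4 rose, 0 fell and 4 did not pass, with a median of 0.37. Rrm2b, a ribonucleotide reductase subunit gene, read 8.65, 8.61, 8.53 and 8.70 in R6/2 mice and 8.23, 8.10, 8.18 and 8.24 in wild-type mice, without overlap (0.43 ± 0.071, adjusted p = 0.00513), and a dimmer set rose by 1.08 (adjusted p = 0.00173). Its remaining dim sets differed by 0.20 (adjusted p = 0.328) and 0.27 (adjusted p = 0.0936) and did not pass. Msh6, a mismatch recognition gene, read 7.12, 7.03, 7.10 and 7.03 in R6/2 mice and 6.81, 6.15, 6.45 and 6.40 in wild-type mice (0.62 ± 0.12, adjusted p = 0.0120). Ccdc82 rose by 0.45 ± 0.085 (adjusted p = 0.00985), though 2 dim sets of it did not pass (-0.044 and -0.025). The mismatch repair gene Mlh3 rose by 0.43 ± 0.11 (adjusted p = 0.0355), a call lost without any array but that of wild-type mouse 42. Without any one array, 3 or 4 of the 8 were called higher, and 2 after adjustment for the cortical score, Rrm2b (0.45) and Msh6 (0.75). With that adjustment Ccdc82 differed by 0.42 (adjusted p = 0.0984) and Mlh3 by 0.51 (adjusted p = 0.121).

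**Figure D4:**
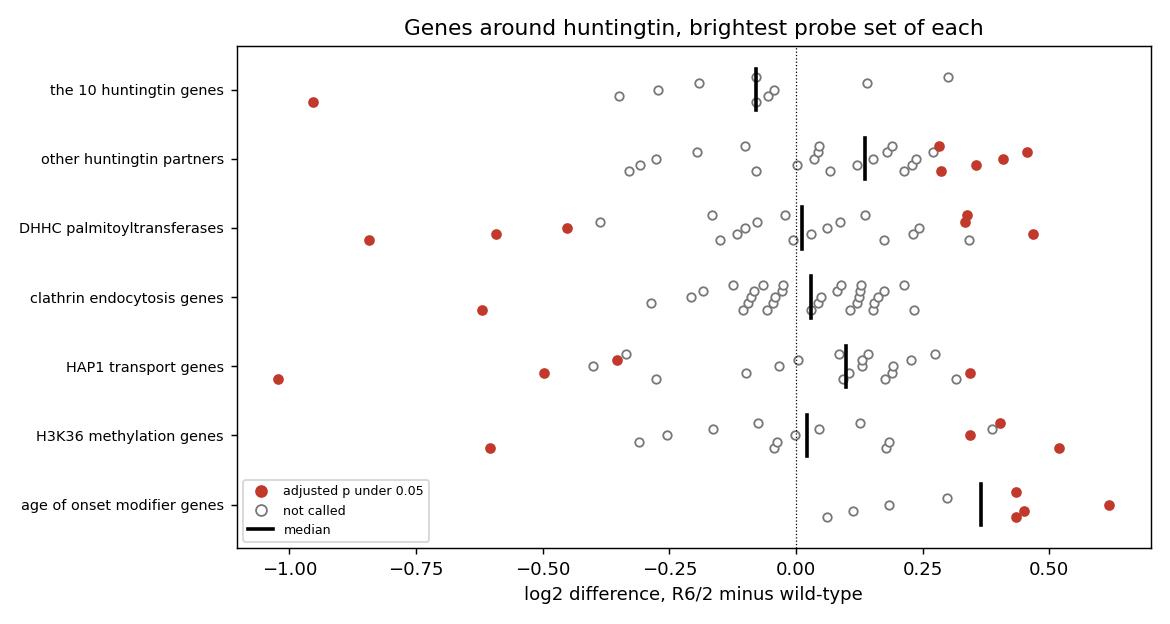
Log2 difference, R6/2 minus wild-type, of the brightest probe set of each gene, for the 10 huntingtin genes and for the 6 lists of related genes; filled points passed an adjusted p of 0.05 and vertical bars are medians. In the list of other huntingtin partners (median 0.14) and that of age of onset modifiers (median 0.37) the filled points all lie to the right of 0, and Kalrn at -1.02 is the point farthest left.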

How the data were processed

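The authors summarised Affymetrix arrays to log2 values, using RMA in affy (version unstated) according to the submitters' processing notes. RMA compresses differences of dim probe sets. The sources used here name no genome build. Of the 5 wild-type mice in the design, 1 was not analysed here.

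Control probe sets (64 of 45101) were left out. Genes came from the platform annotation, with symbols updated by Entrez ID: 34945 probe sets had 1 symbol, 932 several and 9160 none. All probe sets were fitted in R 4.3.3 with limma 3.58.1 (lmFit, eBayes, 8 arrays) and adjusted by Benjamini-Hochberg over 45037, with calls at an adjusted p under 0.05. Errors and intervals are moderated. Pairs of probe sets were compared by an exact 2-sided permutation test over 70 arrangements, whose smallest p is 0.0286. The script was tested on simulated data. The members, lists and alternatives were chosen with earlier results of these data known. Named genes are all member probe sets, up to 4 called genes of each list with the smallest adjusted p, and the 4 closest patterns to Htt and Rasd2. Labels number each mouse separately, so p-values measure the spread between animals, and 4 arrays per group limit the precision. Alternatives were a further quantile normalization, centring on medians, filters on dim or cross-matching sets, other moderation, array weights, gene-level values, a cortical marker covariate and leaving out each array. Figures used Python 3.11.15 and matplotlib 3.10.9.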

Additional observations from a re-analysis of the deposited data

Results flagged for a closer look

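In groups of 4 mice, 5 of 50 groups of member values had 1 mouse far from the others by Dixon's ratio, and chance gives about 1 in 20. Wild-type mouse 63 was low for Htt 1435539_at, at 8.13 against at least 8.30 in the other wild-type mice. Wild-type mouse 42 was low for the dim sets Htt 1446337_at, at 4.45 against at least 4.96, and Zdhhc17 1455986_at, at 3.73 against at least 4.11. R6/2 mouse 70 was high for Hip1 1424756_at, at 5.39 against at most 5.31, and R6/2 mouse 65 was high for Zdhhc17 1458084_at, at 7.50 against 7.43 in the other R6/2 mice. Those other mice had identical values on 1458084_at, so any different value would have been flagged. The chance rate does not cover such ties.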

How the results depend on the processing

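Both Rasd2 probe sets were called lower in all 16 alternatives run on each. The member probe sets called lower numbered 4 with the dimmest 40% of probe sets left out, 5 with an intensity trend and robust moderation, 4 with array weights and 1 with sets ending in _s_at or _x_at left out, which removes a Rasd2 set. They numbered 2 to 3 without 1 array. Those called higher numbered 0 to 1 without 1 array, the 1 being Hap1 without wild-type mouse 54. When the sets of each gene were averaged, where fewer features are adjusted for, 3 genes were called lower (Rasd2, Pacsin1 and Sh3gl3) and 1 higher (Hap1). Sh3gl3 was called in 6 of 17 alternatives on its probe set, Pacsin1 in 2 of 17 (1449380_at) and 3 of 16 (1449381_a_at). Among all 45037 probe sets, 1386 were called with the cortical covariate, 1861 without moderation, and 2780, 2650 and 2656 without R6/2 mouse 64, R6/2 mouse 70 and wild-type mouse 48, against 4566.

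Among the member probe sets, signs turned only for uncalled sets near 0. For Htt they were 1435539_at (0.0043 with the covariate), 1425969_a_at (-0.0029 to 0.15 without 1 array, lowest without wild-type mouse 63) and 1446337_at (-0.025 with array weights, and -0.12 to 0.13 without 1 array, below 0 without R6/2 mouse 64 or 70 or wild-type mouse 42). For Hip1r 1425551_at they were -0.00020 with array weights, -0.058 with the covariate, and -0.11 to 0.11 without 1 array, below 0 without R6/2 mouse 64 or 78 or wild-type mouse 42. For Zdhhc17 they were 1458084_at (-0.0036 with the covariate) and 1458363_at, which lies at the Y-linked level, where a sign has no meaning (0.030 by quantile normalization, 0.0047 by median centring, and -0.022 to 0.0091 without 1 array, above 0 without R6/2 mouse 64 or wild-type mouse 48). For Zdhhc13 they were 0.094 with the covariate and -0.15 to 0.013 without 1 array, above 0 without R6/2 mouse 65, and for Setd2 -0.19 to 0.054, above 0 without wild-type mouse 42. The cause was not tested. No paired analysis was possible because the groups share no mouse numbers.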
